A study of Mus musculus with 6 samples.

Results

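The 33 genes described here make cholesterol and fatty acids, or sense sterols and set how much is made. They were chosen by name, as enzymes and regulators of lipid synthesis, from the 23366 gene symbols of the count table. All 33 had a row in the table, Msmo1 under its older symbol Sc4mol. RNA sequencing counts were compared between CD4+GFP+ regulatory T (Treg) cells of the liver (n = 3 libraries) and of the spleen (n = 3 libraries). Every library came from Foxp3GFP knock-in mice aged 12 days, in which green fluorescent protein reports Foxp3, the factor that defines Treg cells. No other allele or treatment is named for either tissue. The labels do not tell whether a library is 1 animal or a pool, so the p-values measure the spread between these libraries only. Within each tissue the libraries differed in sex-linked transcripts, so they did not all come from the same animals. Liver 3 and spleen 3 held both Xist (462 and 327 CPM), a transcript of female cells, and the Y-linked Ddx3y (53.3 and 76.8 CPM). Each of them thus held RNA of more than 1 animal.

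Cells build sterols from acetyl-CoA through mevalonate and squalene, and fatty acids from the same acetyl-CoA through malonyl-CoA. The transcription factors SREBP, encoded by Srebf1 and Srebf2, sit in the endoplasmic reticulum with their escort Scap. When sterols are plentiful, the Insig proteins hold Scap back. When sterols fall, SREBP moves to the Golgi, is cut and switches on the synthesis genes. Dividing T cells are known to need both arms for new membrane, and products of the mevalonate pathway are known to be needed for Treg suppressive function.

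Counts in genes lay between 8437055 and 10951720 in the liver libraries, at 11408960 and 11358446 in spleen 2 and spleen 3, and at 1199410 in spleen 1, the shallowest library. Levels are given as CPM, the count scaled to a common library total. In spleen 1, 3 counts amounted to 2.58 CPM, and in the others to at most 0.361 CPM; a gene with 0 counts may lie up to that level, counting error alone. The Treg markers were present in all 6 libraries. Foxp3 lay between 1198.5 and 1304 CPM in liver and between 1103 and 1218 CPM in spleen, and neither it nor Cd4 nor Cd3e passed between the tissues (edgeR adjusted p = 0.384, 0.871 and 0.849). Of 13 tested Treg identity genes 4 were called (30.8%, beside 16.2% of all genes tested). Ctla4 and Ikzf2 were higher in liver (log2 fold change 0.89 ± 0.12 and 0.35 ± 0.10), and Il2ra and Lat were lower (-0.60 ± 0.09 and -0.50 ± 0.10).

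Among the lipid synthesis genes, a few single enzymes differed between liver and spleen Treg libraries, at a share near that of the whole table. Of the 33 genes, 31 passed the filter on low counts. By edgeR's quasi-likelihood test with Benjamini-Hochberg adjustment over all 11716 genes tested, 2 of the 31 were higher in liver, 3 were lower there, and the other 26 did not pass at 0.05. The called share was 16.1%, beside 16.2% of all genes tested (9.28% higher and 6.90% lower in liver), so it was near that of the whole table. The median log2 fold change of the 31 was -0.05, against -0.01 over all genes, and 18 of the 31 lay below 0, against 50.7% of all genes. Their median absolute log2 fold change was 0.11, against 0.23 over all genes, which were not matched for level. A gene that did not pass is not thereby shown to be equal in the 2 tissues. The genes higher in liver were the sterol isomerase gene Ebp and the fatty acid elongase gene Elovl5. The genes lower in liver were the desaturase gene Scd1, the squalene epoxidase gene Sqle and Dhcr7, which encodes a late sterol reductase.

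**Figure D1:**
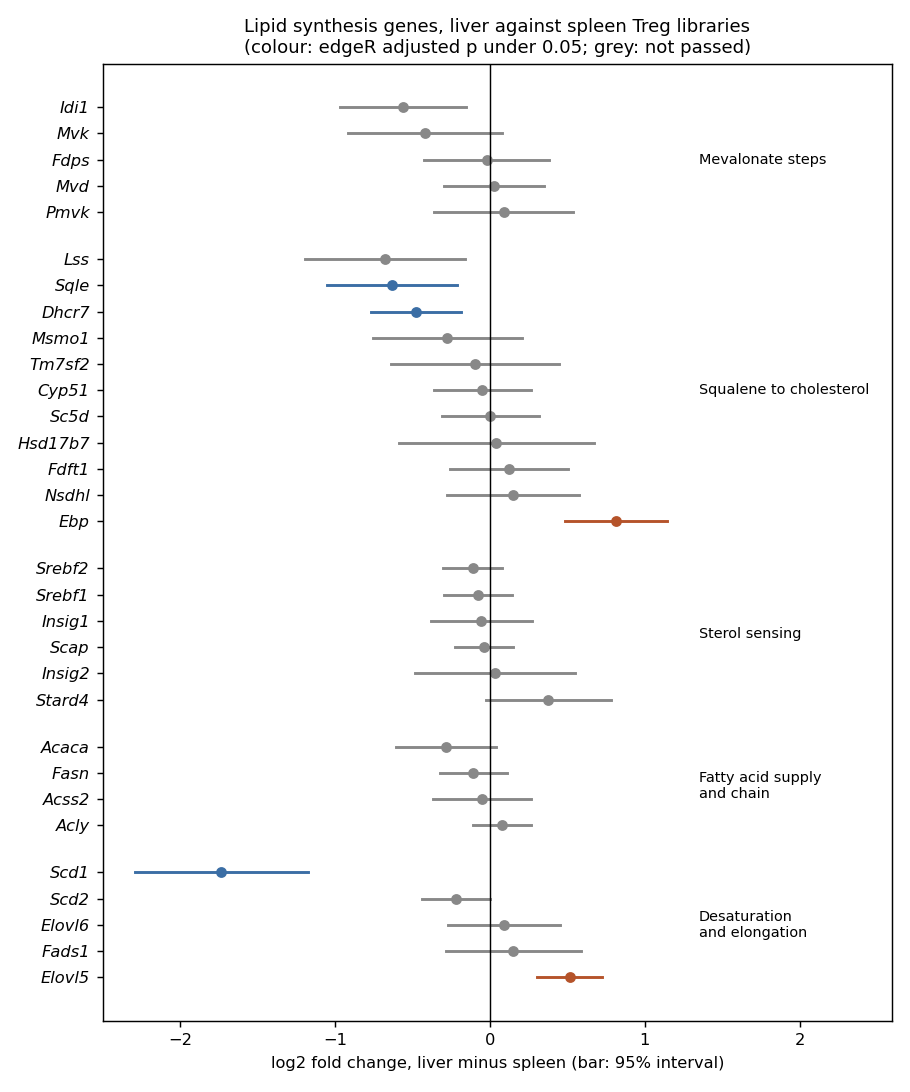
Log2 fold change of each of the 31 tested genes, liver minus spleen, with its 95% interval, grouped by role; coloured genes had an edgeR adjusted p under 0.05. Scd1 lies far to the left at -1.73, and Ebp and Elovl5 lie to the right. The sterol sensing genes lie close to 0 except Stard4, at 0.38 with an interval that includes 0.

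For 10 of the 31 genes every library of one tissue lay above every library of the other, 3 higher in liver and 7 higher in spleen. Over all genes tested this held for 32.9%, 17.7% higher in liver and 15.2% higher in spleen. Besides the 5 called genes, these were Idi1, Lss, Scd2 and Srebf2 on the spleen side and Acly on the liver side. The summed level of all 33 genes was 2448 ± 42.0 CPM (SD, n = 3) in liver and 2452 ± 92.6 CPM (SD, n = 3) in spleen. The sterol enzymes together held 426 ± 32.8 CPM in liver against 428 ± 18.8 CPM in spleen. The fatty acid enzymes together held 1123 ± 42.3 and 1092 ± 14.0 CPM. These sums are given as a description, and in each case the means differed by less than the SD of 1 of the tissues.

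**Figure D2:**
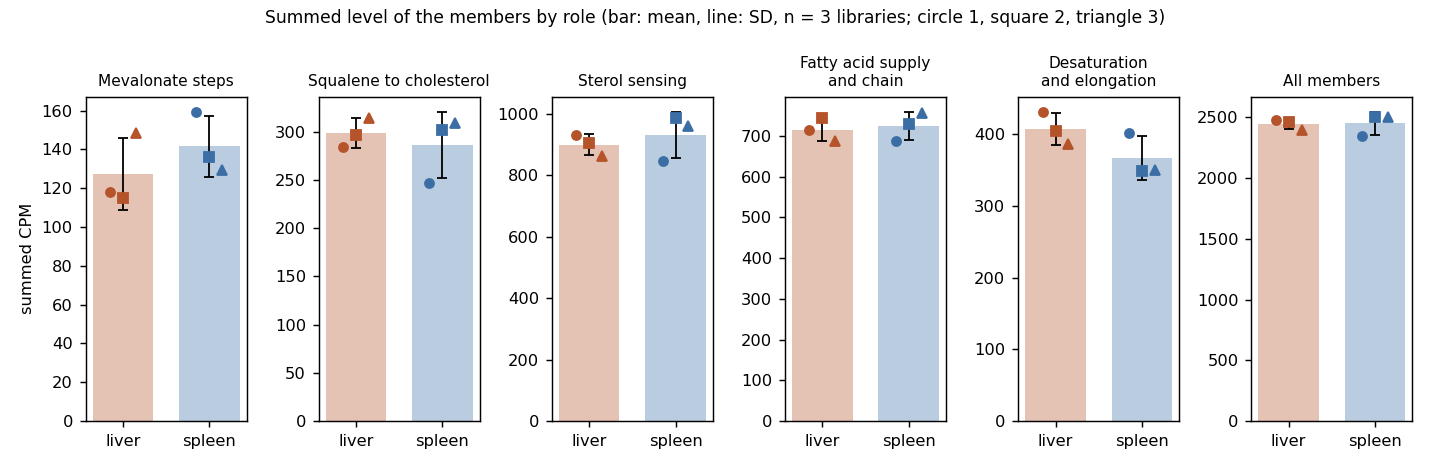
Summed CPM of the members in each library by role, with the mean as a bar and the SD as a line (n = 3 libraries per tissue). The sums of all 33 genes lie between 2345 and 2506 CPM in every library, and liver and spleen overlap in each role except desaturation and elongation, where only spleen 1 reaches the liver range.

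The promoters of the genes that moved in opposite directions are shown because most of the members share 1 short sequence there. Promoter windows, from 250 bases before to 50 bases after an annotated start, were found in a RefSeq table (GRCm38.p6) for 26 of the 33 genes. Sqle, Scd1, Scd2, Fdps, Fdft1, Fads1 and Stard4 were not matched. The 26 include Hmgcs1 and Fads2, which were not tested, whereas the genes they are set against below were all tested. The sequence CCAAT, read on both strands and bound by the factor NF-Y, stood in the windows of 22 of the 26 genes (84.6%), against 43.3% of the 8801 tested genes with a window. The windows without it were those of Acaca, Elovl6, Fads2 and Scap. The sequence GGGCGG, a GC box, stood in 21 of the 26 (80.8%), against 69.1% of those tested genes. CACGTG, an E-box, stood in 6 of the 26 (23.1%), against 12.0%. TCACNCCAC, a form of the sterol regulatory element, stood in 1, that of the untested Hmgcs1, against 1.34%. Each motif was counted on its own, overlaps with another motif included, and genes with several annotated starts had more windows to match. NF-Y and Sp1, which binds GC boxes, are known partners of SREBP at promoters; a match is only a description of these letters.

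The bases before the start of Ebp and Elovl5, both higher in liver, and of Dhcr7, lower in liver, are printed 5′ to 3′ on the strand of the gene, with CCAAT or its reverse complement ATTGG in capitals. Bases that lie in an annotated exon are left out. The first lies at chrX:8193513-8193762 on the minus strand, the second at chr9:77917115-77917363 and the third at chr7:143822917-143823144, both on the plus strand (GRCm38.p6).
Ebp: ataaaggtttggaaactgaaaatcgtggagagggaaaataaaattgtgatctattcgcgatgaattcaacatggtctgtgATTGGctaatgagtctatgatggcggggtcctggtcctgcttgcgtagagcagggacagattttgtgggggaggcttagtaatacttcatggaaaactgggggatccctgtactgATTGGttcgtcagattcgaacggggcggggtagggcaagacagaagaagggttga
Elovl5: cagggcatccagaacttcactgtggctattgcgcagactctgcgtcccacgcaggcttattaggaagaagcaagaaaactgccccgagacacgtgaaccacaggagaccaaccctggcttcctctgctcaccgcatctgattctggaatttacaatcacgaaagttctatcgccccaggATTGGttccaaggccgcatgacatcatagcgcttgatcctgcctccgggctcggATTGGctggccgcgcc
Dhcr7: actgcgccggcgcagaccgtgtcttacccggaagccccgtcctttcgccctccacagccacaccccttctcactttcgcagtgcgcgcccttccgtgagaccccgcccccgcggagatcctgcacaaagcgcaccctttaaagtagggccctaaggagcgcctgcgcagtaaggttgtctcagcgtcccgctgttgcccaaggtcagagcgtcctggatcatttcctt
Ebp and Elovl5 each held 2 copies of ATTGG in these bases. The Dhcr7 window held 0 copies; its matches came from a window of a later annotated start, which is not printed.

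Among the mevalonate steps, none of the 5 tested genes passed by edgeR; 1 of them, Idi1, had an unadjusted p under 0.05, and limma-voom called it while DESeq2 called 0. Hmgcs1, which makes the precursor of mevalonate, had 0 counts in all 6 libraries and gives no measure of that step. Mvd, which makes isopentenyl diphosphate, was at 58.7, 49.8 and 65.2 CPM in liver 1 to 3 and 75.7, 52.8 and 51.5 CPM in spleen 1 to 3, and the tissues overlapped. The interval of its log2 fold change ran from -0.30 to 0.35. Idi1, the isomerase of isopentenyl diphosphate, was at 14.1, 16.0 and 19.8 CPM in liver 1 to 3 and 27.5, 25.4 and 22.5 CPM in spleen 1 to 3. Every spleen library lay above every liver library, and the log2 fold change was -0.56 ± 0.19 (SE), with an edgeR adjusted p of 0.0587. Idi1 passed with upper-quartile scaling (adjusted p = 0.0409), with limma-voom (0.0120), at equal depth (0.0266) and without liver 3 (0.0318); over its 16 alternatives the adjusted p ran from 0.0120 to 0.220. The mevalonate kinase gene Mvk (-0.42 ± 0.24), the next kinase gene Pmvk (0.09 ± 0.21) and Fdps (-0.02 ± 0.19), which joins isoprene units into farnesyl diphosphate, did not pass.

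From squalene to cholesterol, 3 of 11 tested genes were called (27.3%, beside 16.2% of all genes tested), 1 of them higher in liver. This short list as a whole was not tested. Sqle, whose product oxidizes squalene and is a known control point of the pathway, was at 13.9, 14.9 and 17.0 CPM in liver 1 to 3 and 20.7, 28.4 and 20.4 CPM in spleen 1 to 3. The tissues did not overlap, and spleen 2 was the highest library. Sqle was 1.55-fold higher in spleen, a log2 fold change of -0.63 ± 0.20 with an edgeR adjusted p of 0.0391. This call was lost without liver 1, liver 2 or spleen 2 (adjusted p = 0.131, 0.128 and 0.356), with the DESeq2 Wald test (0.0559), and with a block on sex-linked transcripts (0.0678). At equal depth, from a single random thinning of the counts, the Sqle log2 fold change was -0.20 (edgeR adjusted p = 0.761). Over the 16 alternatives of Sqle the adjusted p ran from 0.00747 to 0.761.

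Lss, which closes oxidized squalene into lanosterol, was at 7.82, 8.80 and 7.59 CPM in liver 1 to 3 and 15.5, 12.9 and 11.9 CPM in spleen 1 to 3. The tissues did not overlap, but the gene did not pass (-0.67 ± 0.25, edgeR adjusted p = 0.0721), and only limma-voom among 16 alternatives called it (0.0444; range 0.0444 to 0.403). The level of Dhcr7, whose product makes cholesterol from its direct precursor, was 32.0, 35.4 and 35.4 CPM in liver 1 to 3 and 45.6, 47.5 and 49.0 CPM in spleen 1 to 3. Its libraries lay close together within each tissue and did not overlap between them. It was 1.39-fold higher in spleen (-0.48 ± 0.14, edgeR adjusted p = 0.0234). The Dhcr7 call was lost without liver 1, liver 2, spleen 2 or spleen 3 (adjusted p = 0.0848, 0.0719, 0.109 and 0.125). At equal depth its log2 fold change was -0.32 (adjusted p = 0.415), and its adjusted p ran from 0.00429 to 0.415 over 16 alternatives.

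Ebp went the other way. Its product moves a double bond in the sterol ring, a few steps before Dhcr7. The 3 liver libraries held 63.8, 58.8 and 86.3 CPM and the 3 spleen libraries 34.4, 39.2 and 42.2 CPM. All liver values lay above all spleen values, and liver 3 was the highest. Ebp was 1.76-fold higher in liver (0.81 ± 0.16, edgeR adjusted p = 0.00116). It stayed past the threshold in all 16 alternatives, with adjusted p from 5.38e-07 to 0.00731. Ebp lies on the X chromosome, and the libraries differed in sex-linked transcripts. Liver 1 and spleen 1 held Xist without Ddx3y, liver 2 and spleen 2 held Ddx3y with Xist under 0.2 CPM, and liver 3 and spleen 3 held both. With a block on this difference the log2 fold change of Ebp was 0.83 (adjusted p = 0.000314).

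The remaining 7 genes of this stretch had log2 fold changes between -0.27 and 0.15 and did not pass. They were Fdft1, which makes squalene, Cyp51, the lanosterol demethylase, and the later enzyme genes Tm7sf2, Msmo1, Nsdhl, Hsd17b7 and Sc5d. Cyp51 lay between 29.9 and 34.1 CPM over all 6 libraries, and the interval of its log2 fold change ran from -0.36 to 0.27. The widest interval was that of Hsd17b7, from -0.59 to 0.67; spleen 1 held 4 counts of it, 3.44 CPM with an exact 95% Poisson interval of 0.938 to 8.82 CPM. A difference as large as that of Dhcr7 was thus not detectable for Hsd17b7 at this depth.

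**Figure D3:**
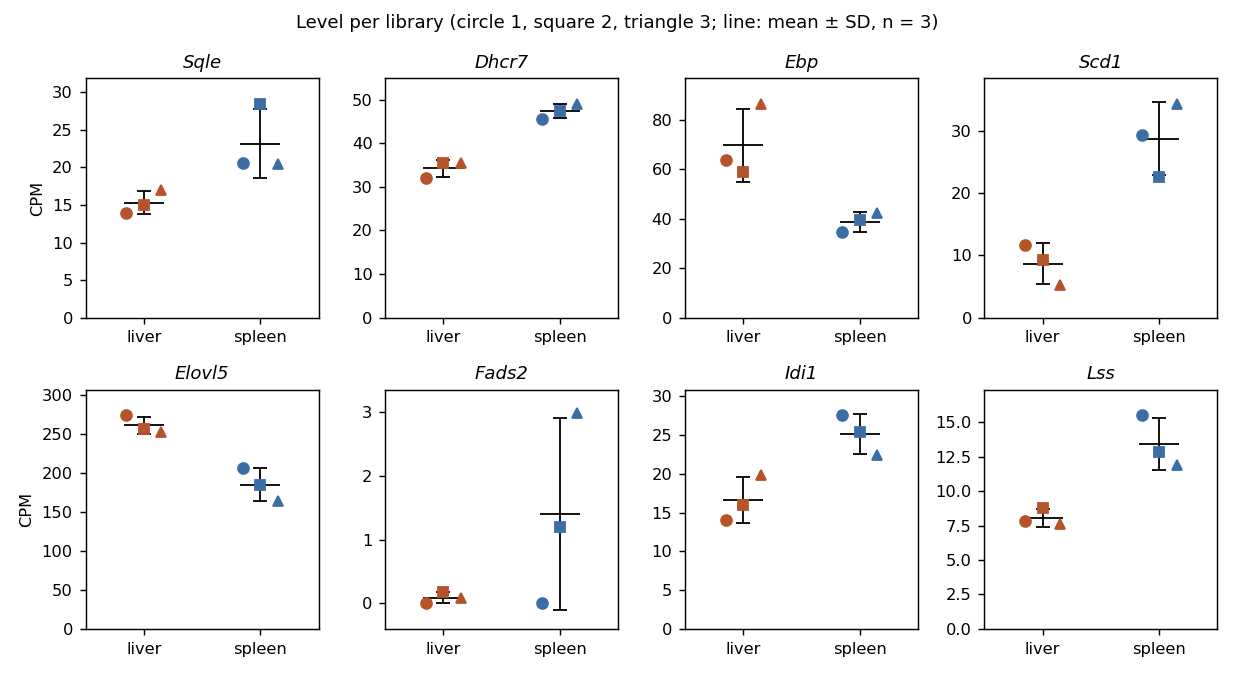
CPM in each library for the 5 called genes, for Fads2, and for Idi1 and Lss, with the mean and SD (n = 3 libraries per tissue). Liver and spleen libraries do not overlap for any gene shown except Fads2, where spleen 1 has 0 counts like liver 1.

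None of the 6 sterol sensing genes passed by edgeR; 0 had an unadjusted p under 0.05, and DESeq2 and limma-voom called 0. Srebf2, whose product mainly drives sterol genes, had the highest level per kilobase of exon of all members (85.3 CPM per kilobase over all libraries). It was at 423, 423 and 405 CPM in liver 1 to 3 and 426, 463 and 457 CPM in spleen 1 to 3. The spleen values lay just above the liver values, with a log2 fold change of -0.11 ± 0.09 (edgeR adjusted p = 0.473). Next in level per kilobase were Elovl5 (80.4) and Acly (73.9), then Srebf1 (50.8) and Scap (42.8), and Hsd17b7 (1.43) was the lowest of the 31 tested genes. Srebf1, whose product mainly drives fatty acid genes, was at 232, 209 and 201 CPM in liver 1 to 3 and 188, 249 and 229 CPM in spleen 1 to 3, and the tissues overlapped (-0.08 ± 0.11, edgeR adjusted p = 0.694). The share of Srebf1 in the counts of both genes was 33.9% ± 1.34 in liver and 33.0% ± 2.19 in spleen (SD, n = 3 each; exact permutation p = 0.6, two-sided).

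Scap held 187, 180 and 170 CPM in liver 1 to 3 and 180, 184 and 185 CPM in spleen 1 to 3. Its interval, from -0.23 to 0.15 on the log2 scale, was among the narrowest of the members. Insig1, which SREBP itself induces, was at 43.2, 39.5 and 41.0 CPM in liver 1 to 3 and 31.8, 50.2 and 40.6 CPM in spleen 1 to 3, so spleen held both the lowest and the highest library (-0.05 ± 0.15, edgeR adjusted p = 0.864). Its relative Insig2 was at 19.6, 19.4 and 18.2 CPM in liver 1 to 3 and 6.02, 20.6 and 21.8 CPM in spleen 1 to 3. The low value of spleen 1 rested on 7 counts (exact 95% Poisson interval 2.42 to 12.4 CPM), and without that library the log2 fold change was -0.15 (adjusted p = 0.595). Stard4, which carries sterol between membranes, was at 26.0, 33.3 and 27.5 CPM in liver 1 to 3 and 15.5, 20.4 and 26.8 CPM in spleen 1 to 3. Its libraries overlapped, and its log2 fold change of 0.38 ± 0.19 did not pass (edgeR adjusted p = 0.209).

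None of the 4 genes that supply acetyl-CoA and build the fatty acid chain passed by edgeR; again 0 had an unadjusted p under 0.05 and the other tools called 0. Acly, which makes acetyl-CoA from citrate, was at 356, 350 and 346 CPM in liver 1 to 3 and 318, 332 and 343 CPM in spleen 1 to 3. Liver lay above spleen in each library by a small margin (0.08 ± 0.09, edgeR adjusted p = 0.618). Fasn, the fatty acid synthase gene, was at 281, 306 and 255 CPM in liver 1 to 3 and 269, 304 and 327 CPM in spleen 1 to 3. The tissues overlapped, and the interval ran from -0.32 to 0.11. Acaca, which makes malonyl-CoA, had a log2 fold change of -0.28 ± 0.15 (edgeR adjusted p = 0.241). Acss2, which makes acetyl-CoA from acetate, had one of -0.05 ± 0.15.

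Desaturation and elongation held the largest difference of all members. Scd1, a desaturase that makes monounsaturated fatty acids, was at 11.7, 9.17 and 5.19 CPM in liver 1 to 3 and 29.3, 22.6 and 34.3 CPM in spleen 1 to 3. The highest liver library was below the lowest spleen library, and liver 3 was the lowest of all. Scd1 was 3.33-fold higher in spleen, with -1.73 ± 0.26 as its log2 fold change (edgeR adjusted p = 0.000152). It stayed past the threshold in all 16 alternatives, with log2 fold changes from -1.99 to -1.46 and adjusted p from 1.92e-12 to 0.00500.

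Scd2, the paralog that carries most of the counts of the pair, was at 95.4, 89.8 and 84.6 CPM in liver 1 to 3 and 110, 98.9 and 106 CPM in spleen 1 to 3. Spleen lay above liver without overlap, but by much less, and the gene did not pass (-0.22 ± 0.10, edgeR adjusted p = 0.186). Of the counts of both genes, Scd1 took 10.9%, 9.27% and 5.77% in liver 1 to 3 and 21.0%, 18.6% and 24.4% in spleen 1 to 3. The share was thus 8.65% ± 2.62 in liver and 21.3% ± 2.89 in spleen (SD, n = 3 each). The 2 sets of shares did not overlap; the exact permutation p was 0.1, two-sided, the smallest that 3 against 3 libraries allow (0.25 adjusted over 5 pairs). Scd1 and Scd2 are close in sequence, and the table keeps reads with several alignments in a row apart from the genes, so the split between them is uncertain.

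**Figure D4:**
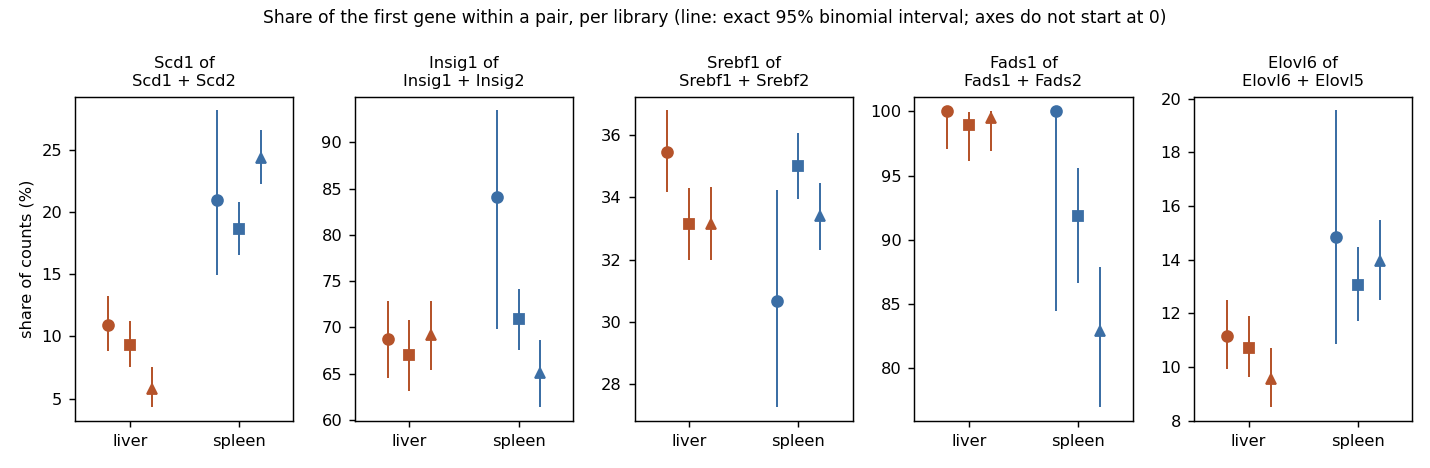
Share of counts taken by the first gene of each of 5 pairs in each library, with its exact 95% binomial interval, which covers counting error only. The Scd1 and Elovl6 shares are lower in all 3 liver libraries than in any spleen library, and the other 3 pairs overlap.

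Elovl5, which lengthens polyunsaturated fatty acids, was among the most abundant members, at 274, 257 and 253 CPM in liver 1 to 3 and 207, 184 and 165 CPM in spleen 1 to 3. All liver libraries lay above all spleen libraries. It was 1.43-fold higher in liver (0.52 ± 0.10, edgeR adjusted p = 0.00126), and it passed in all 16 alternatives (adjusted p from 9.64e-06 to 0.0157). Elovl6, which lengthens saturated and monounsaturated chains, was at 34.5, 30.9 and 26.8 CPM in liver 1 to 3 and 36.1, 27.7 and 26.8 CPM in spleen 1 to 3, with the tissues overlapping (0.09 ± 0.17, edgeR adjusted p = 0.786). Elovl6 took 10.5% ± 0.830 of the counts of both elongase genes in liver and 14.0% ± 0.893 in spleen (SD, n = 3 each). These shares did not overlap (exact permutation p = 0.1, two-sided, the smallest possible, and 0.25 adjusted over 5 pairs). The Elovl5 counts make up most of the pair, so this share is not a result apart from the Elovl5 call.

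The desaturase genes Fads1 and Fads2 act on polyunsaturated fatty acids. Fads1 was at 15.3, 17.1 and 17.0 CPM in liver 1 to 3 and 18.9, 13.5 and 14.5 CPM in spleen 1 to 3, with no difference past the test (0.15 ± 0.21, edgeR adjusted p = 0.685). Fads2 was hardly detected: the liver libraries held 0, 2 and 1 counts and the spleen libraries 0, 14 and 35. Spleen 2 and spleen 3 stood above all other libraries, at 1.20 and 2.99 CPM, while the 0 of spleen 1 allows up to 2.58 CPM. Fads2 did not pass the filter on low counts. Without that filter it was called lower in liver (edgeR adjusted p = 0.00240), and likewise by DESeq2 (adjusted p = 0.0301). The Fads1 share of both genes overlapped between tissues (exact permutation p = 0.4, two-sided).

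Transcripts of other cell types also differed between the libraries, and their part in these results was not tested. For scale, 9.28% of all genes tested were called higher and 6.90% lower in liver. Summed over each list, erythroid markers (led by Beta-s and Gata1) lay between 27.4 and 35.6 CPM in liver and between 271 and 365 CPM in spleen, with 12 of 12 tested genes lower in liver. Granulocyte markers (Ngp, Ltf) lay between 367 and 391 CPM in liver and between 603 and 1032 CPM in spleen (14 of 17 lower in liver). Macrophage markers (Cd68, Csf1r) lay between 19.0 and 26.3 against 80.5 and 140 CPM (8 of 9 lower), and B cell markers (Cd79a, Cd79b) between 164 and 200 against 273 and 381 CPM (8 of 16 lower). NK and CD8 T cell markers (Nkg7, Prf1) were the other way, at 107 to 136 CPM in liver and 47.7 to 58.0 CPM in spleen (5 of 10 higher in liver, 1 lower). Stellate and endothelial cell markers (Pecam1, Stab2) lay between 188 and 230 against 246 and 269 CPM (1 of 5 lower). Pecam1 alone held a mean of 209 of 215 CPM in liver and 239 of 260 CPM in spleen. Of the 12 genes of that list, 3 had 0 counts in every library. Hepatocyte markers, of a cell type that makes much cholesterol and fat (Trf, Hp), summed to 22.8 to 37.3 CPM in liver and 25.8 to 35.3 CPM in spleen (2 of 5 higher, 1 lower). Trf and Hp held means of 9.97 and 8.28 of 32.2 CPM in liver. In spleen they held 17.2 and 9.37 of 30.2 CPM, most of the sum there. The hepatocyte gene Alb had 50, 24 and 79 counts in liver 1 to 3 and 0 in each spleen library. Of the 20 hepatocyte genes, 14 had 0 counts in all spleen libraries and 1 had 0 counts in all liver libraries. Mitotic genes (Mki67, Top2a), which mark dividing cells, summed to 2477 to 2753 CPM in liver and 930 to 1086 CPM in spleen, and 18 of 18 were higher in liver. Immediate early and stress genes (Junb, Fos) summed to 3707 to 5216 CPM in liver and 3609 to 3760 CPM in spleen (2 of 11 higher, 1 lower). In sorted bulk samples, fewer cells of a type and less RNA per cell cannot be told apart.

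Of 87 other genes of lipid handling in the table, 72 were tested. Of these, 9 were higher in liver, 6 were lower and 57 did not pass (20.8% called, beside 16.2% of all genes tested). Their median log2 fold change was -0.01. In other sterol and isoprenoid synthesis 2 of 16 tested genes were called (12.5%). Lbr, a protein of the nuclear envelope that also reduces a sterol intermediate, was higher in liver, with 445 ± 21.4 CPM against 301 ± 18.2 CPM (SD, n = 3 each; log2 fold change 0.57 ± 0.09, edgeR adjusted p = 0.000302).

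In other fatty acid synthesis 4 of 18 were called (22.2%, beside 16.2% of all genes tested). Hacd3 (Ptplad1 in the table), a dehydratase of chain elongation, was higher in liver (0.60 ± 0.11, edgeR adjusted p = 0.000576). Acss1 (0.41 ± 0.11) and Acsl5 (0.35 ± 0.11), which link acetate and long-chain fatty acids to coenzyme A, were higher too, and Acsl1, of the same function as Acsl5, was lower (-0.62 ± 0.20). None of 16 tested genes of SREBP processing and turnover passed by edgeR, with 0 at an unadjusted p under 0.05 and 0 called by DESeq2 or limma-voom; their median log2 fold change was 0.01. Among them were the protease genes Mbtps1 (0.00 ± 0.10) and Mbtps2 (0.21 ± 0.23).

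Sterol uptake, efflux and storage had 9 of 22 genes called, 5 higher in liver and 4 lower. That is 40.9%, beside 16.2% of all genes tested, and the list as a whole was not tested. The genes for the lysosomal sterol exporters Npc1 (134 ± 3.17 against 101 ± 6.02 CPM) and Npc2 (267 ± 31.6 against 209 ± 7.11 CPM) were higher in liver. So were Tspo, an outer mitochondrial membrane protein gene (0.63 ± 0.13), and Osbpl9, a lipid transfer protein gene (0.40 ± 0.10). The sterol transfer protein gene Gramd1b (-0.52 ± 0.11) and the lipoprotein receptor gene Scarb1 (-0.78 ± 0.20) were lower in liver. These 9 genes lay on both sides of 0, as did the called members.

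**Figure D5:**
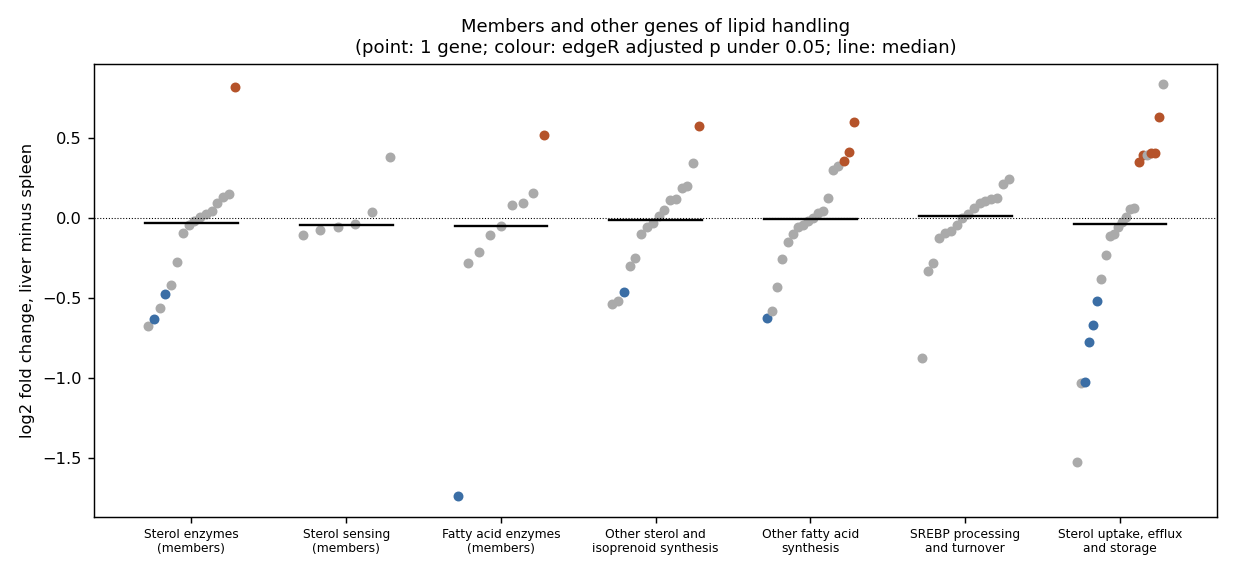
Log2 fold change, liver minus spleen, of each tested member and of the other tested genes of lipid handling, 1 point per gene, with the median of each group as a line and called genes in colour. All medians lie between -0.05 and 0.01, and the SREBP processing genes have no called gene.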

How the data were processed

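The authors deposited raw counts of reads for each gene symbol; per the submitters' processing notes the authors used HISAT2 2.1, HTSeq 0.11 and the genome build mm9. Annotation, use of strand and filters on reads: not given in the sources used here, so reads of overlapping or antisense genes may be mixed. HTSeq's 5 summary rows, 25.5% to 29.0% of the counts of a library, were left out. Libraries are numbered in accession order.

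Counts were tested in R 4.3.3 with edgeR 4.0.16 (filterByExpr, TMM, quasi-likelihood F test, all 6 libraries, Benjamini-Hochberg over 11716 genes). SE follows from the F statistic; the common biological coefficient of variation was 0.129. The methods were tested on simulated data. Every library pair differed beyond sampling noise (chi-square over its degrees of freedom at least 4.56). Exonic length came from GENCODE on GRCm38, a later build. The members and lists were chosen with earlier results of these data known. Values per library are given for called members, sterol sensing genes, paralog pairs and the most abundant members; of other lists, up to 4 called genes per direction; some genes that rule picks are not reported here, and Mvd, Idi1, Lss, Cyp51, Alb, Cd4, Cd3e, Ctla4, Ikzf2, Il2ra, Lat, Mbtps1 and Mbtps2 were added after their values were seen. The alternatives were DESeq2 1.42.0, limma-voom (limma 3.58.1) with quality weights, other scalings, filters, a robust fit, thinning to equal depth and leaving out each library. The thinning was a single random draw of counts, so its values carry the sampling noise of that draw. A block on sex-linked transcripts was added after seeing the data.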

Additional observations from a re-analysis of the deposited data

How the results depend on the processing

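The labels pair no libraries, and the replicate numbers only follow accession order. The block on sex-linked transcripts, added after seeing the data, splits the libraries into 3 pairs of 1 liver and 1 spleen library of like number; with it 2 members were called higher and 2 lower in liver, and Sqle was lost. Ebp, Elovl5 and Scd1 were called under each of 16 alternatives. The number of members called higher in liver was 2 throughout. The number called lower was 3, and it was 5 with limma-voom, 4 with upper-quartile factors or no filter, 2 at equal depth or with the sex-linked block, and 1 to 5 with a library left out (1 without spleen 2, 5 without liver 3). Of the other genes of lipid handling, 9 higher and 6 lower became 4 and 2 at equal depth, and 6 to 9 and 3 to 8 with a library left out (3 lower without spleen 2). The share of all tested genes called moved as well, from 16.2% to 23.6% with limma-voom and to 11.1% at equal depth. Without spleen 2, 1208 of 11942 genes were called, and without liver 3, 1645 of 12048. The member counts did not always move with those of the whole table. Without liver 3 more members were called lower in liver (5 against 3), while fewer genes of the table were (701 against 808). With upper-quartile factors 954 genes of the table were higher and 1014 lower in liver, against 1087 and 808; the median shift was -0.05. The cause was not tested.

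Among the members, 36 log2 fold changes of 11 genes turned sign, none of them called under either setting, the largest 0.18 in size. Signs turned with DESeq2 factors for Sc5d (-0.0021). They turned with upper-quartile factors for Mvd (-0.0197), Hsd17b7 (-0.0049), Sc5d (-0.0413), Insig2 (-0.0137). They turned with limma-voom for Hsd17b7 (-0.0331), Sc5d (-0.0224), Insig2 (-0.055), Acss2 (0.0343). They turned with the filter of 5 CPM for Sc5d (-0.0005). They turned with thinning to equal depth for Mvd (-0.0095), Fdps (0.0401), Hsd17b7 (-0.0902), Insig1 (0.18), Fads1 (-0.0162). They turned with the sex-linked block for Mvd (-0.0009), Fdps (0.0336). With a library left out the range spanned 0 for Fdps (-0.21 to 0.11), Cyp51 (-0.091 to 0.0042), Hsd17b7 (-0.0875 to 0.17), Acss2 (-0.17 to 0.072), Sc5d (-0.0938 to 0.14), Mvd (-0.0753 to 0.15), Insig2 (-0.15 to 0.22), Tm7sf2 (-0.26 to 0.0488), Srebf1 (-0.16 to 0.017) and Insig1 (-0.14 to 0.13). The difference in the Insig1 share of its pair ran from -9.18 to 0.334 percentage points, turning sign without spleen 1. The difference in the Srebf1 share of its pair ran from -0.276 to 1.89 percentage points, turning sign without spleen 1. Spleen 1, with 1199410 counts, limits the precision for the least abundant genes, since 3 counts there amount to 2.58 CPM.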
